A study of Rattus norvegicus with 458 samples.

Results

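Among the microRNAs (miRNAs) counted in 23 tissues of the rat, miR-128-3p, miR-137-3p and miR-153-3p had their highest mean levels in the brain, and they differed in which brain region led and in which other organs held them. The members described here are all names of the deposited miRNA table with miR-128, miR-137 or miR-153 as a part and any arm, precursor sequences left out. They are 9 of 7534 names. Small RNA was sequenced from libraries of naive Sprague Dawley rats of 12 to 13 weeks. The 10 rats, 5 males (rats 2 to 6) and 5 females (rats 7 to 11), each gave the cerebrum, hippocampus, cerebellum, brainstem, adrenal, pancreas, liver, heart, whole kidney, kidney cortex, kidney medulla, duodenum, jejunum, ileum, glandular and non-glandular stomach, biceps femoris, soleus and whole blood. The testis came from the 5 males, and the ovary and uterus from the 5 females. The dorsal root ganglion (DRG) is represented by 10 libraries of 2 RNA pools, a male and a female one, so its libraries are technical repeats. According to the methods of the study, Takeda Pharmaceuticals supplied the DRG RNA, whereas the other tissues came from its own necropsies. In comparisons with the DRG, tissue and RNA source therefore cannot be told apart. The rats were untreated, and the comparisons are between tissues and between the sexes.

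A miRNA is cut from a hairpin precursor, whose 5′ and 3′ sides can each give a mature strand, the 5p and the 3p arm. The mature strand guides the silencing complex to messenger RNAs mainly through its seed, bases 2 to 8 counted from the 5′ end, so that a start shifted by 1 base changes the seed. All members are known as neuronal miRNAs. miR-128 is among the abundant miRNAs of the mammalian forebrain and dampens neuronal excitability, miR-137 acts in neural progenitors, dendrites and synapses, and miR-153 lies in a gene of dense-core vesicles and targets genes of neurotransmitter release.

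The mature 3p strands are shown because the results turn on them, each 5′ to 3′ with the seed in capitals (RefSeq, build GRCr8):
miR-128-3p: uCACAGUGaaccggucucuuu
miR-137-3p: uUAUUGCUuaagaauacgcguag
miR-153-3p: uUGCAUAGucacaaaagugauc
The 5p strands are shown because those of miR-128 differ between its loci:
miR-128-1-5p: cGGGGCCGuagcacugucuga
miR-128-2-5p: gGGGGCCGaugcacuguaaga
miR-137-5p: aCGGGUAUucuuggguggauaa
miR-153-5p: gUCAUUUUugugauguugcagcu
The strand miR-128-3p is made by 2 loci and is the same from each. Mir128-1 on chromosome 13 (hairpin chr13:42251884-42251965, plus strand) lies within the span of R3hdm1. Mir128-2 on chromosome 8 (chr8:120963795-120963878, minus strand) lies within the span of Arpp21, which encodes a neuronal phosphoprotein. The 5p strands of these loci share a seed but not the rest of the sequence, and they therefore tell the loci apart. Mir137 (chr2:209165709-209165810, plus strand) lies in a long non-coding RNA, and Mir153 (chr6:144306594-144306680, plus strand) lies within the span of Ptprn2, a gene of a dense-core vesicle protein. Among 693 mature rat names none shared the seed of miR-128-3p, miR-137-3p or miR-153-3p. With a shift of 1 base, the seed of miR-128-3p is found in miR-27a-3p, miR-27b-3p and miR-216a-3p.

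After the rule of selection, 208 libraries were used. The others were the duodenum of rats 2, 4, 7 and 11 and the hippocampus of rats 2, 6 and 7, leaving 6 duodenum and 7 hippocampus libraries. A used library held 376401 to 17725805 counts. The brain libraries held 2207930 to 7506562, the DRG libraries 946725 to 3787763 and the testis libraries 376401 to 653651, so that 1 count weighs most in the testis. Levels are counts scaled to a library total of 1000000 (CPM). The neuronal markers miR-124-3p and miR-9a-5p were detected in every brain and DRG library, with miR-124-3p at 2514 ± 524 CPM in the brainstem, 11757 ± 690 in the cerebellum (SD, n = 10 each) and 342 to 444 CPM in the DRG libraries. The libraries labelled adrenal of rat 8, uterus of rat 8 and ovary of rat 11 held 210076, 267430 and 270908 CPM of miR-215, an intestinal marker. The miR-128-3p level of the adrenal, the adrenal differences and the most similar names are given with and without these 3 libraries. The other comparisons with non-neural tissues include them. Without the library of rat 8, the uterus mean of miR-153-3p was 0.634 CPM instead of 6.69. Without the library of rat 11, the ovary mean was 4.46 CPM instead of 7.75. In bulk tissue, fewer cells of a type and less of a miRNA per cell cannot be told apart.

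miR-128-3p was the most counted member, with 4490650 counts, and was detected in every library. In the cerebrum it ranked between places 5 and 6 of all names. Its cerebrum levels were 34122 CPM at the lowest, 45462 at the median and 60350 at the highest. The hippocampus lay at 20257, 23077 and 30864 CPM, the cerebellum at 7566, 11648 and 17299 CPM, and the brainstem at 4161, 5384 and 9799 CPM. Cerebrum and hippocampus did not overlap with each other or with the cerebellum, whereas cerebellum and brainstem overlapped only through the brainstem of rat 9. Within each of the 10 rats the cerebrum lay above the cerebellum and the cerebellum above the brainstem, and the hippocampus lay between cerebrum and cerebellum in all 7 rats with a hippocampus library. The soleus followed with 534, 750 and 912 CPM (mean 1.68% of the cerebrum), then the adrenal (47.7, 741 and 1007 CPM), the biceps femoris (371, 535 and 713 CPM), the DRG (273, 436 and 962 CPM) and the testis (294 to 507 CPM). From soleus to testis, neighbours in the order differed by less than the larger of their SDs, while every soleus library lay above every testis library. Without the library labelled adrenal of rat 8, the adrenal mean was 774 ± 121 CPM (SD, n = 9), above the 756 ± 117 CPM of the soleus by less than either SD and above the 536 ± 107 CPM of the biceps by more than either SD. The remaining tissues had means from 139 CPM in whole blood and 138 in the heart (156 CPM in the ovary without the library of rat 11) to 22.4 CPM in the non-glandular stomach, which is 0.0498% of the cerebrum level.

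miR-137-3p was the least counted 3p member, with 53170 counts. It was highest in the hippocampus, at 375, 457 and 499 CPM (lowest, median and highest library). The cerebrum lay at 161, 398 and 455 CPM, the brainstem at 67.6, 95.4 and 253 CPM, the DRG at 78.2, 101 and 131 CPM and the cerebellum at 70.0, 91.5 and 103 CPM. Hippocampus and cerebrum overlapped, and their means of 447 ± 46.0 and 369 ± 90.9 CPM (SD) differed by less than the larger SD. Brainstem, DRG and cerebellum overlapped as well. Outside the nervous system, the adrenal followed with 0.875, 8.10 and 11.2 CPM, and the duodenum with 1.84, 3.33 and 5.46 CPM. Jejunum and ileum had means of 1.74 and 1.71 CPM. All other tissues had means below 1 CPM, and in the kidney medulla 2 counts were found among 58539758.

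miR-153-3p, with 133814 counts, was highest in the cerebrum, at 230, 1028 and 1332 CPM. The hippocampus lay at 629, 743 and 768 CPM, the brainstem at 257, 293 and 1074 CPM and the cerebellum at 344, 378 and 460 CPM. Brainstem and cerebellum had nearly the same mean (389 ± 248 and 387 ± 37.7 CPM), with the brainstem mean raised by the highest library, that of rat 9. The pancreas came next, at 193, 229 and 290 CPM, below every cerebellum library and above every adrenal library. It overlapped with the lowest brainstem libraries and with the lowest cerebrum library, that of rat 9 at 230 CPM. Adrenal (16.5, 20.4 and 43.8 CPM) and duodenum (14.7, 17 and 29.6 CPM) overlapped. The DRG lay far below the brain regions, at 2.20, 7.71 and 14.3 CPM. The lowest mean was that of whole blood, where 3 counts were found among 65014561.

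**Figure D1:**
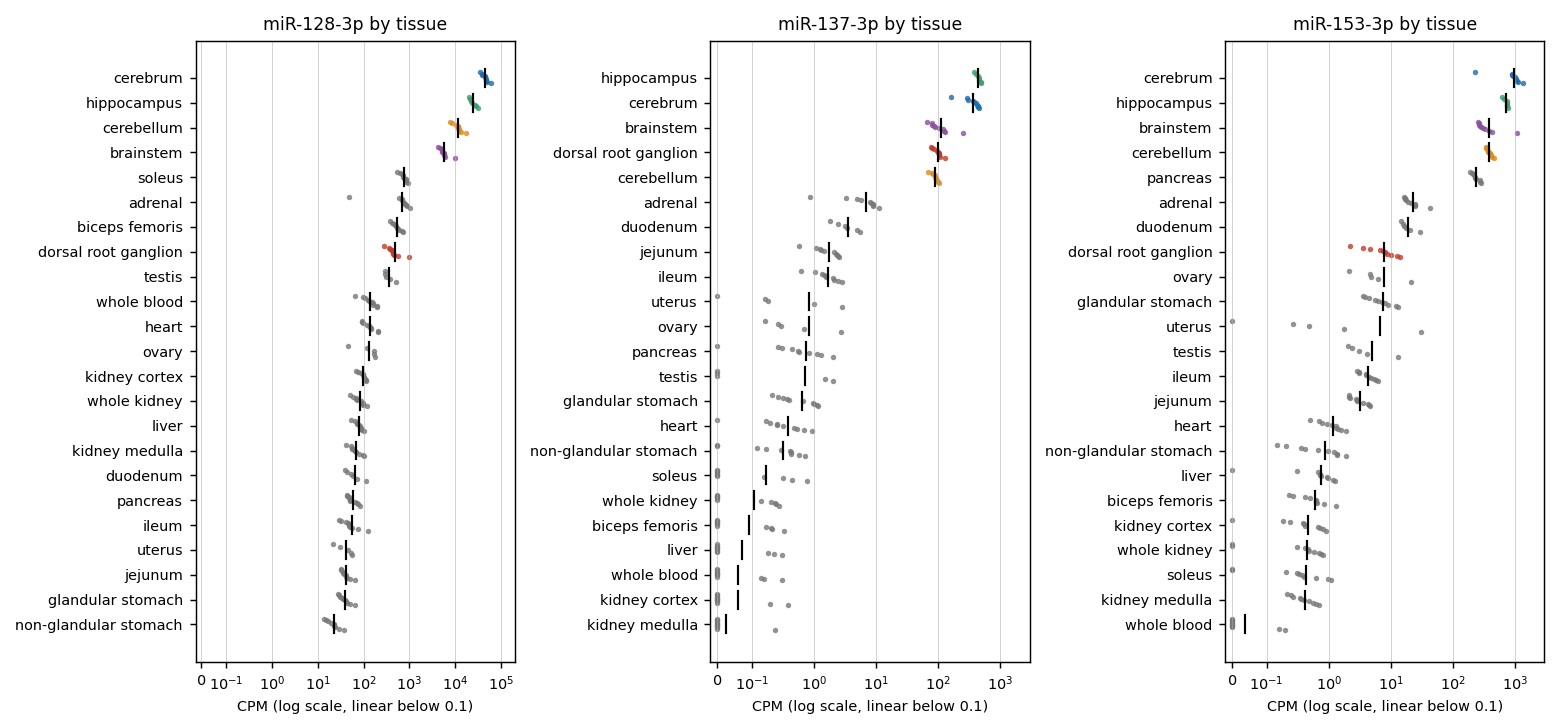
Levels of miR-128-3p, miR-137-3p and miR-153-3p in 23 tissues, in CPM on a log scale. Points are libraries and bars mark tissue means. The 4 brain regions hold the highest means of miR-128-3p, followed by soleus and adrenal, whose order turns without the adrenal library of rat 8. The DRG stands among the brain regions for miR-137-3p, with a mean of 99.5 CPM, and the pancreas stands next to them for miR-153-3p, with a mean of 238 CPM.

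The 3 members were tested between tissues with edgeR's quasi-likelihood test over 1593 names, with Benjamini-Hochberg adjustment and a threshold of 0.05. Of the 9 member names, 7 passed the filter on low counts. The other two, composite names of a 5p arm and a precursor, had 2 counts (miR-128-2-5p) and 1 count (miR-137-5p) in all. In the mean of the 4 brain regions against the mean of the 18 non-neural tissues, both on the log2 scale, miR-128-3p was higher by 5.26 ± 0.09 (SE; adjusted p = 5.79e-116), miR-153-3p by 5.99 ± 0.14 (adjusted p = 5.61e-95) and miR-137-3p by 6.94 ± 0.16 (adjusted p = 1.11e-95). All 3 were thus past the threshold, as were 61.6% of all names in either direction, with a median log2 difference of -0.98 over all names. In a list of 10 other names known from neurons, 10 of 10 were higher, by 3.72 to 8.96 with a median of 5.49. The members thus lay inside the range of miR-218a-5p at the lower end and miR-124-3p at the upper end. Of the sum of the 23 tissue means, the brain held 95.7% for miR-128-3p, 89.6% for miR-137-3p and 88.3% for miR-153-3p, and the DRG held 0.523%, 8.74% and 0.279%.

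Within the brain, miR-128-3p passed the threshold in 5 of 6 pairs of regions, miR-137-3p in 4 and miR-153-3p in 2. miR-128-3p was higher in the cerebrum than in the brainstem by 3.24 ± 0.26 (log2, SE; adjusted p = 6.41e-24), than in the cerebellum by 1.39 ± 0.24 (adjusted p = 6.26e-07) and than in the hippocampus by 0.99 ± 0.27 (adjusted p = 0.0161). It was also higher in the hippocampus than in the brainstem, by 2.25 ± 0.26 (adjusted p = 4.50e-13), and lower in the brainstem than in the cerebellum, with a difference of -1.85 ± 0.24 (adjusted p = 5.66e-11). Hippocampus and cerebellum differed by 0.40 ± 0.26 (adjusted p = 0.314) in this fit, although the CPM of all 7 hippocampus libraries lay above all 10 cerebellum libraries. The call depended on the scaling, since the difference was 0.73 with TMM (adjusted p = 0.0163), 0.97 with RLE (adjusted p = 4.56e-05) and 0.97 with DESeq2 (adjusted p = 1.51e-05). The call of cerebrum against hippocampus was lost without rat 11 (0.84, adjusted p = 0.0838), rat 3 (0.89, adjusted p = 0.0762) or rat 5 (0.96, adjusted p = 0.0573).

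miR-137-3p split the regions into a high and a low pair. It was higher in the hippocampus than in the cerebellum by 1.65 ± 0.39 (log2, SE; adjusted p = 0.000443) and than in the brainstem by 2.14 ± 0.40 (adjusted p = 9.00e-06). The cerebrum lay above the cerebellum by 1.5 ± 0.37 (adjusted p = 0.000594) and above the brainstem by 1.99 ± 0.37 (adjusted p = 1.10e-05). Within the pairs no difference passed the threshold. Cerebrum minus hippocampus was -0.15 with a 95% interval of -0.92 to 0.63, and brainstem minus cerebellum was -0.49 with an interval of -1.20 to 0.22. The latter was above 0 with TMM (0.08), RLE (0.13) and DESeq2 (0.13), so no direction is given.

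For miR-153-3p both differences that passed the threshold in this fit were against the brainstem. The cerebrum lay above the brainstem by 1.58 ± 0.35 (log2, SE; adjusted p = 0.00029) and the hippocampus above the brainstem by 1.04 ± 0.37 (adjusted p = 0.0456). The latter call was lost with TMM (0.82, adjusted p = 0.103) and when rat 2, 3, 4, 5, 6, 7 or 10 was left out (0.98 to 1.06). Cerebrum minus cerebellum was 0.79 ± 0.34 (adjusted p = 0.0739) and brainstem minus cerebellum -0.79 ± 0.34 (adjusted p = 0.0739). With the rat as a block, brainstem minus cerebellum was -0.78 and passed (adjusted p = 0.0456). With another scaling the cerebrum passed against the cerebellum, by 1.14 with TMM (adjusted p = 0.00377), 1.23 with RLE (adjusted p = 0.00129) and 1.23 with DESeq2 (adjusted p = 0.00017), and brainstem minus cerebellum was -0.24, -0.16 and -0.16 and did not pass. Cerebrum minus cerebellum also passed without the 3 libraries high in miR-215 (0.81, adjusted p = 0.0176). Without rat 8 both passed, at 0.79 (adjusted p = 0.0425) and -0.76 (adjusted p = 0.0497). Without the cerebrum and brainstem libraries of rat 9, both differences passed, at 0.90 (adjusted p = 0.033) and -1.10 (adjusted p = 0.00867). Hippocampus minus cerebellum was 0.25, with an interval of -0.48 to 0.98, which passed with DESeq2 alone (0.81, adjusted p = 0.0467). Cerebrum minus hippocampus was 0.54, with an interval of -0.20 to 1.29.

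Of the 3 members, 2 passed the threshold in cerebrum against cerebellum, where 26.5% of all names did. In cerebrum against hippocampus 1 member passed, against 3.70% of all names, and in cerebrum against brainstem 3 passed, against 14.0%. In hippocampus against cerebellum 1 passed, against 20.8%, in hippocampus against brainstem 3 passed, against 13.2%, and in brainstem against cerebellum 1 passed, against 28.1%. The list of other neuronal names did not share one order. Of its 10 names, 7 were higher in the cerebrum than in the brainstem (median log2 difference 1.06) and none was lower. Against the cerebellum 5 were higher in the cerebrum, among them miR-132-3p and miR-212-3p, which are induced by neuronal activity, by 3.87 and 4.54. In the same comparison 2 were lower, miR-124-3p by -1.55 and miR-129-5p by -0.89.

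Rat 9 stood apart in cerebrum and brainstem. Its cerebrum held 34122 CPM of miR-128-3p, 161 of miR-137-3p and 230 of miR-153-3p, against 38319 to 60350, 294 to 455 and 905 to 1332 in the other 9 rats. Its brainstem held 9799, 253 and 1074 CPM, against 4161 to 5860, 67.6 to 129 and 257 to 434. The hippocampus and cerebellum of rat 9 lay within the range of the other rats, except for 768 CPM of miR-153-3p in the hippocampus, just above their highest value of 758. Runs of the first flow cell and runs of the other flow cells showed the same for rat 9, with miR-153-3p in the brainstem at 1016 and 1082 CPM. Other markers moved in these libraries. In the cerebrum of rat 9 the neuronal marker miR-9a-5p was at 18611 CPM, below the 32574 to 39462 of the others, and miR-124-3p was at 4708 CPM, within their range. The oligodendrocyte marker miR-338-3p was at 1403 CPM there, below 2421 to 4081, while miR-219a-2-3p was within the range. In the brainstem of rat 9, miR-124-3p (3507 CPM) and miR-9a-5p (26018 CPM) lay above the other 9 libraries, and miR-219a-2-3p (1335 CPM) and miR-338-3p (6089 CPM) lay below them. Their part in the values of rat 9 was not tested.

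The DRG, a peripheral ganglion of sensory neurons and glia, held miR-137-3p within the range of the brain regions and the other members far below it. In the 2 pools, each summed over its libraries and used as 1 sample in the tests, miR-137-3p was at 103 CPM (female) and 99.6 CPM (male), miR-128-3p at 374 and 685 CPM and miR-153-3p at 5.58 and 11 CPM. Against the mean of the brain regions, miR-128-3p was lower in the DRG, with a difference of -4.60 ± 0.57 (log2, SE; adjusted p = 2.71e-12), as was miR-153-3p at -5.74 ± 0.88 (adjusted p = 1.33e-08). miR-137-3p differed by -0.59, with an interval of -1.81 to 0.63 (adjusted p = 0.562), and passed with DESeq2 (-0.99, adjusted p = 0.0294). The SEs and intervals of these DRG differences are rough, for the reason given with the processing. Of the 3 members 2 passed, against 28.2% of all names. Of the 10 other neuronal names, 9 were lower in the DRG, and miR-138-5p was not past the threshold (0.75 ± 0.41, adjusted p = 0.167). Against non-neural tissues miR-137-3p was higher by 6.35 ± 0.29 (adjusted p = 3.92e-51), while miR-128-3p (0.67 ± 0.35, adjusted p = 0.18) and miR-153-3p (0.25 ± 0.50, adjusted p = 0.939) were not past the threshold. This is 1 of 3 members, against 24.2% of all names, while 8 of the 10 other neuronal names were higher. The median over all names was -0.67 in this comparison. For miR-128-3p the call depended on the scaling, with 1.5 under TMM (adjusted p = 5.19e-06) and 1.25 under DESeq2 (adjusted p = 0.000122). The DRG libraries held 7333 ± 1134 CPM (SD, 10 technical libraries) of miR-338-3p, listed as an oligodendrocyte marker. The other marker of that list, miR-219a-2-3p, is not given for the DRG, so no glial content is read from this value.

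Outside the nervous system the adrenal, whose medulla holds chromaffin cells of neural crest origin, was higher than the mean of the other non-neural tissues for all 3 members, where 36.8% of all names passed. miR-137-3p was higher there by 3.5 ± 0.23 (log2, SE; adjusted p = 1.05e-32), miR-153-3p by 2.79 ± 0.21 (adjusted p = 3.98e-28) and miR-128-3p by 2.10 ± 0.14 (adjusted p = 2.22e-32). Without the libraries labelled adrenal of rat 8, ovary of rat 11 and uterus of rat 8, the differences were 3.72, 2.84 and 2.23. Without rat 8, the 9 adrenal libraries held 594 to 1007 CPM of miR-128-3p, 3.33 to 11.2 of miR-137-3p and 16.5 to 24.9 of miR-153-3p, whereas the library of rat 8 held 47.7, 0.875 and 43.8 CPM. The other neuronal names were not uniformly high in the adrenal, where 3 of 10 were higher and 5 lower.

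The pancreas was high in miR-153-3p alone among the members. miR-153-3p was higher there than in the other non-neural tissues by 6.82 ± 0.17 (log2, SE; adjusted p = 1.10e-88), in all 10 pancreas libraries above every library of the other non-neural tissues. miR-128-3p was lower there, at -1.26 ± 0.20 (adjusted p = 9.81e-09), and miR-137-3p, at 0 to 2.06 CPM, did not pass (0.60 ± 0.34, adjusted p = 0.164) except when rat 8 was left out (0.89, adjusted p = 0.0172). Without rat 8 the kidney medulla, part of the reference, had 0 counts of miR-137-3p in every library. The value of 0.89 therefore rests partly on a tissue at 0 and is no measured fold. In this comparison 38.1% of all names passed. The 5p arm gave 1.55 ± 0.243% (SD, n = 10) of the miR-153 reads in the pancreas, against 4.03 to 6.91% in the means of the brain regions. A similar share was found in the adrenal, at 1.43 ± 0.663% (SD, 7 libraries), and in the 1 duodenum library with enough counts, at 1.53%. The pancreas RNA had the lowest RNA integrity numbers (RIN) in the labels, 4.9 to 6.8 in its 10 libraries, against 6 to 9.9 in 188 libraries of other tissues, of which 9 were at or below 6.8. The part of RNA quality in these pancreas values was not tested.

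In the gut wall (duodenum, jejunum, ileum and both stomach parts), miR-137-3p was higher than in the other non-neural tissues by 2.66 ± 0.20 (log2, SE; adjusted p = 1.06e-26) and miR-153-3p by 1.94 ± 0.16 (adjusted p = 1.25e-24), while miR-128-3p was lower, at -1.25 ± 0.10 (adjusted p = 5.35e-24). All 3 passed, against 36.3% of all names. The levels were low, with means of 0.316 to 3.55 CPM for miR-137-3p and 0.860 to 19.1 CPM for miR-153-3p. The parts of the gut were not alike. For miR-137-3p the glandular (0.650 CPM) and non-glandular stomach (0.316 CPM) lay below the pancreas mean of 0.748 CPM, against 1.71 to 3.55 CPM in the intestine. For miR-153-3p the non-glandular stomach (0.860 CPM) lay below the heart mean of 1.16 CPM, while the glandular stomach held 7.40 CPM. Of the 10 other neuronal names 7 were higher and 1 was lower, with a median of 0.55. With the left-out libraries included, the difference of miR-128-3p was -0.19 (adjusted p = 0.485). The duodenum libraries of rats 2, 4 and 7, left out here, held 18204, 23989 and 38315 CPM of miR-128-3p and 5311, 5627 and 4113 CPM of miR-124-3p, against 2.39 to 23.8 CPM of miR-124-3p in the 6 duodenum libraries used.

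In skeletal muscle (biceps femoris and soleus) the directions were the other way round. miR-128-3p was higher there by 2.38 ± 0.11 (log2, SE; adjusted p = 2.51e-52), and miR-137-3p and miR-153-3p were lower, at -2.25 ± 0.38 (adjusted p = 6.86e-08) and -2.82 ± 0.28 (adjusted p = 8.92e-19). All 3 passed, against 42.7% of all names. The reference was a mean over the other non-neural tissues, some of which were about as low as muscle. Mean miR-137-3p was 0.169 CPM in soleus and 0.0915 in biceps, against 0.0238 to 0.110 CPM in kidney, liver and whole blood. Mean miR-153-3p was 0.608 CPM in biceps and 0.433 in soleus, against 0.0360 to 0.474 CPM in kidney and whole blood. In each case the remaining non-neural tissues had higher means than both muscles. The 10 soleus libraries held 9 counts of miR-137-3p among 50945312 and the 10 biceps libraries 4 among 49622259, so these fits rest on few counts. Without rat 8 the call of miR-137-3p was lost (-1.99, adjusted p = 1), since the kidney medulla then had 0 counts in every library. Of the other neuronal names, 9 of 10 were lower in muscle. The heart, with 90.6 to 209 CPM of miR-128-3p, lay below all muscle libraries.

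**Figure D2:**
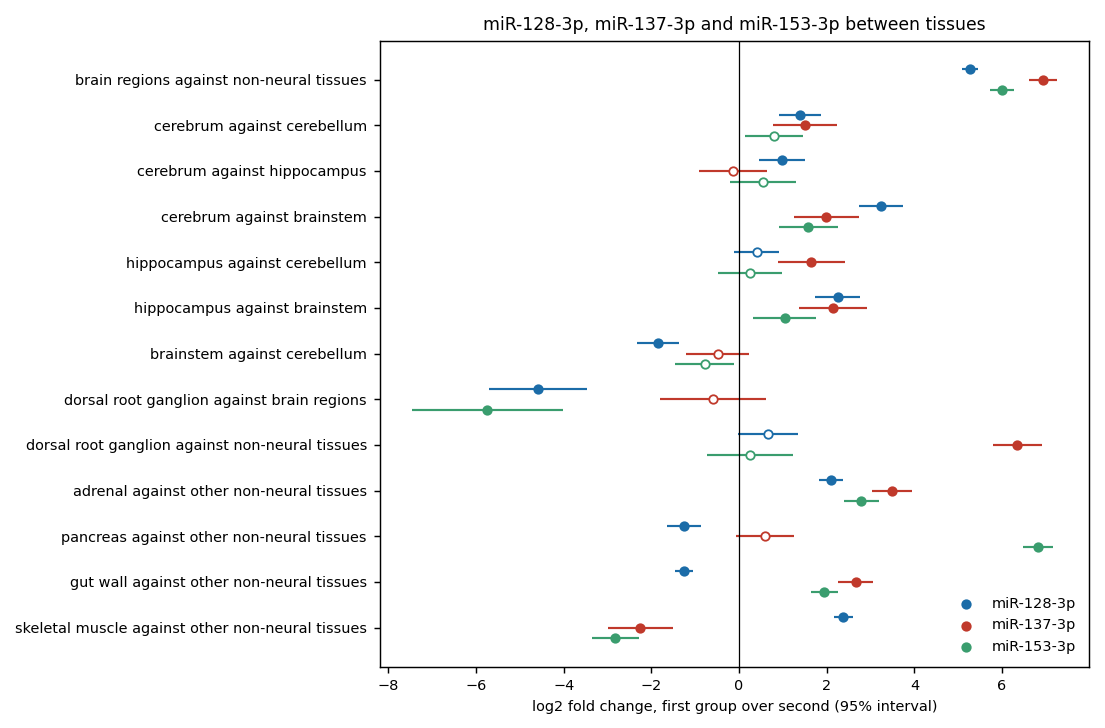
Differences between tissues on the log2 scale for miR-128-3p, miR-137-3p and miR-153-3p, with 95% intervals, from edgeR's quasi-likelihood fit. Filled points passed the threshold and open points did not. In the DRG against the brain only miR-137-3p has an open point, at -0.59, and in the pancreas miR-153-3p stands at 6.82 while miR-128-3p stands at -1.26.

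No difference between females and males was past the threshold in the brain. In the mean of the 4 regions female minus male was -0.01 ± 0.15 (log2, SE) for miR-128-3p, 0.23 ± 0.23 for miR-137-3p and 0.16 ± 0.18 for miR-153-3p (each adjusted p = 1 over 1068 names), so the intervals reached from -0.31 to 0.29, -0.22 to 0.68 and -0.20 to 0.51. Of all names, 0% passed in the mean of the 4 regions (36 at an unadjusted p under 0.05, and 7 with DESeq2), 0.0936% in the cerebrum, 0.936% in the cerebellum, 0.0936% in the hippocampus and 0% in the brainstem. The differences with the largest size were those of miR-153-3p (0.60 ± 0.34) and miR-137-3p (0.54 ± 0.44) in the brainstem, where the female mean includes rat 9. In 18 tests of whether the sex difference varied between regions, 0 passed. The rat is nested in sex, so the fit had no term for the rat. The regions of 1 rat therefore entered these SEs and intervals as separate samples.

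The 5p arms were rare. Together they made 0.141% of the miR-128 reads in the cerebellum and 0.339 to 0.370% in the other brain regions (means over libraries), and 0.722 to 1.03% of the miR-137 reads in the 4 regions. Of the miR-153 reads, 6.91 ± 1.45% (SD) were 5p in the brainstem, 5.64 ± 1.09% in the cerebrum, 4.63 ± 1.51% in the hippocampus and 4.03 ± 0.832% in the cerebellum. The share of 5p reads of miR-128 was highest in the ovary, at 5.26 ± 0.810% in the 4 libraries with enough counts.

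Since only the 5p names tell the loci of miR-128 apart, the share of miR-128-2-5p among both 5p names was compared between brain regions in libraries with at least 20 such counts. This share describes the rare 5p reads alone, and the locus of the miR-128-3p reads was not measured. The share was 9.69% in the cerebrum (5.05 to 14.4%), 12.1% in the hippocampus (7.49 to 15.1%), 14.5% in the brainstem (8.20 to 22.9%) and 27.0% in the cerebellum (12.5 to 39.3%). The 10 cerebrum libraries held 7586 counts of these names and the 10 cerebellum libraries 753, so a cerebellum value is less precise. The share of miR-128-1-5p was higher in the cerebrum than in the cerebellum by 17.3 ± 8.47 percentage points (SD over rats), in 10 of 10 rats (exact two-sided sign-flip permutation test, adjusted p = 0.00586 over 6 pairs of regions, from the smallest p that 10 rats allow, 0.00195). In the hippocampus it was higher than in the cerebellum by 17 ± 7.47 points, in 7 of 7 rats (exact permutation test, adjusted p = 0.0234). The brainstem lay above the cerebellum by 12.5 ± 8.10 points in 10 of 10 rats and below the cerebrum by 4.83 ± 4.85 points in 8 of 10 rats (exact permutation tests, adjusted p = 0.00586 and 0.0156). Cerebrum against hippocampus (3.51 ± 3.22 points, adjusted p = 0.0563) and hippocampus against brainstem (3.18 ± 6.19 points, adjusted p = 0.25) did not pass in exact permutation tests. Summed over its libraries, the soleus had 27 of 125 counts from miR-128-2-5p (21.6%, 95% Wilson interval 15.3 to 29.6%) and the biceps 17 of 102 (16.7%, 10.7 to 25.1%). The ovary had 0 of 161, which allows a share of up to 1.86%, and the whole kidney 0 of 176, which allows up to 1.70%. These intervals and limits cover counting error only, since the reads carry no molecular identifiers.

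A second view of the loci came from miR-128-3p reads that ran 1 base past the RefSeq end. The 3′ side of the hairpins is shown because that base, in capitals, differs:
Mir128-1: ucacagugaaccggucucuuuUucagc
Mir128-2: ucacagugaaccggucucuuuCccuac
Of the reads ending 1 base further in C or T, C made up 22.6 ± 1.80% (SD) in the cerebellum, 25.6 ± 3.82% in the cerebrum, 29.6 ± 3.89% in the hippocampus and 34.0 ± 4.89% in the brainstem. In the soleus it was 37.8 ± 2.09%, in the biceps 32.8 ± 3.66%, in whole blood 37.9 ± 7.58%, in the DRG 40.7 ± 6.01% (7 libraries) and in the heart 15.9 ± 3.66%. The order of the brain regions was thus not that of the 5p names, in which the cerebellum had the highest share of the Mir128-2 name. A base added after processing can also give T or C, and reads ending 1 base further in A, which neither hairpin holds, numbered 59993 in the cerebrum, against 437949 in T and 142375 in C. The share of C therefore is not a share of a locus. It was looked at after the values of the 5p names were seen and is given with no test.

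**Figure D3:**
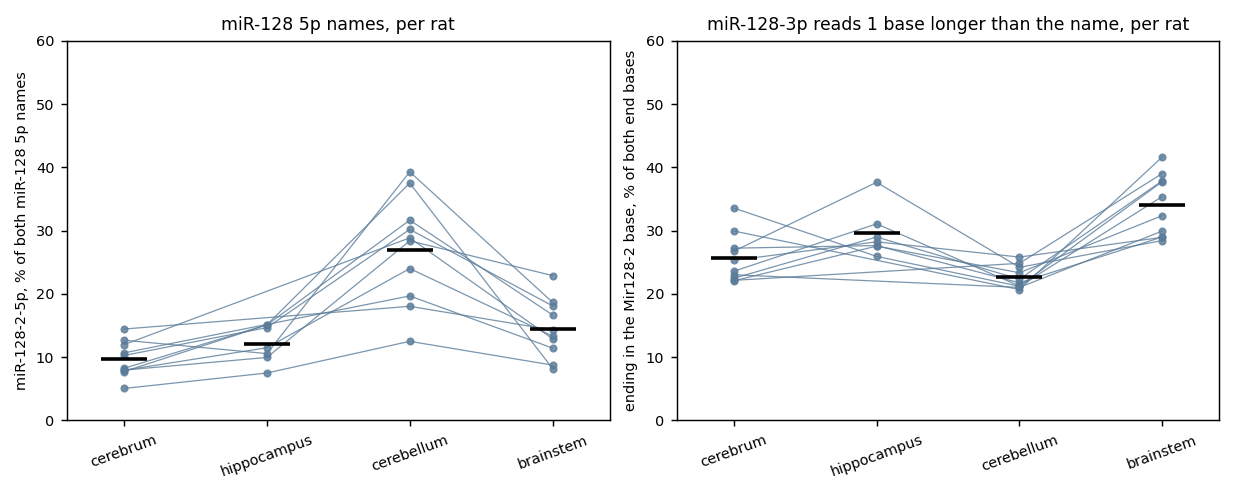
Left, share of miR-128-2-5p among both miR-128 5p names in the 4 brain regions, in percent, by library. Right, share of C among miR-128-3p reads that end 1 base further in C or T, in percent. The cerebellum had the highest mean on the left, 27.0%, and the lowest mean of the brain regions on the right, 22.6%.

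The isomiRs, the length and end variants of a name, differed between members. The most counted sequence was the RefSeq form for miR-128-3p (50.3% of its reads) and for miR-153-3p (72.1%). For miR-137-3p it was a form 2 bases shorter at the 3′ end, with 30.2% of the reads against 18.6% for the RefSeq form. It is shown as deposited, in DNA letters with the seed in capitals:
miR-137-3p, most counted: tTATTGCTtaagaatacgcgt
In lane 8 of 1 flow cell many reads of the 3 members carried an extra base at the 5′ end. There, miR-128-3p reads with 1 such base made up 58.8 to 69.4% in 13 runs, against at most 1.27% in 281 runs of 22 other lanes. For miR-137-3p the share was 49.6 and 57.5% in the 2 runs of this lane with enough reads, and for miR-153-3p 53.9 to 57.7% in 3 runs. Of the bases added to miR-128-3p 44.3% were T, 39.4% G, 11.7% A and 4.66% C. The runs of this lane belonged to 14 libraries, among them the cerebrum of rat 9 and the brainstem of rat 6, so shares of ends are also given without them, a choice made after seeing the data.

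Shifted starts were more frequent for miR-137-3p than for the other members. Without lane 8, a start other than that of the most counted sequence, nearly always 1 to 3 bases further in, was found in 14.8 ± 1.55% (SD) of its reads in the cerebellum, 11.2 ± 0.715% in the cerebrum, 11.2 ± 0.988% in the hippocampus, 8.98 ± 1.46% in the brainstem and 6.10 ± 1.03% in the DRG. Such a start gives another seed. In the brain regions the share was 0.184 to 0.224% for miR-128-3p and 0.53 to 0.636% for miR-153-3p. In the DRG it was 0.304% for miR-128-3p (9 libraries). The cerebellum exceeded the cerebrum by 3.71 ± 1.51 points in 9 of 9 rats and the brainstem by 6.00 ± 2.06 points in 9 of 9 rats (exact permutation tests, adjusted p = 0.0352 each over 18 tests). With lane 8 included, 0 of 18 passed the exact permutation test.

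Reads of 21 bases also had their highest share of miR-137-3p in the cerebellum, at 40.7 ± 3.36% (SD), against 31.1 ± 6.42% in the cerebrum, 35.2 ± 3.19% in the hippocampus, 27.2 ± 6.05% in the brainstem and 16.3 ± 2.81% in the DRG. With all runs, cerebrum against cerebellum (-9.57 ± 7.18 points) and cerebellum against brainstem (13.4 ± 7.72 points) passed in 10 of 10 rats each (exact permutation tests, adjusted p = 0.0176). Without lane 8, 10 of 18 tests passed in the exact permutation test, 5 of them for miR-128-3p. Reads of 21 bases made up, of miR-128-3p, 56.6 ± 1.36% in the hippocampus, 56.5 ± 2.70% in the brainstem, 53.3 ± 1.23% in the cerebrum and 45.8 ± 1.94% in the cerebellum then, and 36.0 ± 2.36% in the soleus. Among miR-137-3p reads that reached base 23, counted from 1 at the 5′ end, the change G23C against RefSeq was found in 49.4 ± 5.85% in the brainstem, 43.6 ± 5.22% in the cerebrum, 35.6 ± 2.46% in the hippocampus, 28.6 ± 3.73% in the cerebellum and 17.3 ± 4.45% in the DRG (8 libraries). This base was looked at after its values were seen and was not tested.

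The names with the most similar profile were those with the highest Pearson correlation of log2(CPM + 1) over the 23 tissue means, among 710 names. For miR-128-3p they were miR-539-3p (r = 0.954), miR-539-5p, miR-6331, miR-543-3p and miR-543-5p (r = 0.928). For miR-137-3p they were miR-323-3p (r = 0.973), miR-384-5p, miR-325-3p, miR-323-5p and miR-384-3p (r = 0.962). For miR-153-3p they were miR-384-3p (r = 0.902), miR-3099, miR-582-5p, miR-7b and miR-384-5p (r = 0.887). Over the 19 tissues without the brain regions, the names most like miR-153-3p were miR-216a-3p (r = 0.921), miR-217-5p, miR-216a-5p, miR-217-3p and miR-216b-5p (r = 0.897), all highest in the pancreas. Without the 3 libraries high in miR-215, the same 5 names led with r from 0.839 to 0.822. Over 23 tissues, 4 of the 5 names were shared with and without these libraries for miR-128-3p, 5 for miR-137-3p and 4 for miR-153-3p, which then was most like miR-3099 (r = 0.901). Between members r was 0.852 for miR-128-3p and miR-137-3p, 0.84 for miR-137-3p and miR-153-3p and 0.733 for miR-128-3p and miR-153-3p, and without the brain regions 0.32, 0.413 and -0.07. The tissue means share libraries, so these are descriptions.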

How the data were processed

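Total RNA of each tissue had been made into TruSeq small RNA libraries and sequenced on a HiSeq2000. The deposited values were raw counts of reads per miRNA name and per isomiR, which the authors made by trimming adapters (cutadapt 1.4.1, per the submitters' processing notes), dropping short reads and assigning the others with miRDeep2 to known rat miRNAs or, failing that, to those of mouse, human and C. elegans, with predicted miRNAs added. Of 458 deposited runs, 14 that repeated a lane were set aside and 444 were summed to libraries by the rat and tissue of the labels. The used libraries held a median of 4777568 counts. Shares of summed counts carry 95% Wilson intervals, and a count of 0 a limit of 3 counts. For the tests, the 10 DRG libraries were summed to their 2 pools.

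Counts were fitted with edgeR 4.0.16 (R 4.3.3), filterByExpr, upper-quartile scaling from the names that pass this filter, and the quasi-likelihood test with Benjamini-Hochberg adjustment over all names. Contrasts are between means of tissue coefficients on the log2 scale, with the rat as a block in an alternative. DESeq2 1.42.0 was an alternative. The code was tested on simulated data. Shares of arms, loci and isomiRs were compared within rats by exact sign-flip permutation tests (Python 3.11.15, scipy 1.17.1), in libraries with at least 20 counts of both 5p names or 100 of a 3p name. Replicate numbers are the rats of the labels, so libraries with 1 number come from 1 animal. Over 287 names the mean correlation of the deviations of 2 regions of 1 rat was between -0.123 and 0.323.

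The members and lists were chosen with earlier results of these data known. Names were given by this rule: all member names, 10 other neuronal names (miR-9-5p and miR-9-3p are listed as miR-9a-5p and miR-9a-3p) by counts with up to 4 examples, and the 5 names most correlated with each 3p member. Sequences are from RefSeq.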

Additional observations from a re-analysis of the deposited data

Results flagged for a closer look

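In 72 groups of libraries the highest and lowest values were looked at, and 24 groups held a library far from the others, where chance gives about 5% of groups. Rat 9 gave the highest brainstem levels of miR-128-3p (9799 CPM, the next at 5860), miR-137-3p (253 CPM, the next at 129) and miR-153-3p (1074 CPM, the next at 434), and the lowest cerebrum level of miR-153-3p (230 CPM, the next at 905). The library labelled adrenal of rat 8 had the lowest adrenal level of miR-128-3p (47.7 CPM, the next at 594) and the highest of miR-153-3p (43.8 CPM, the next at 24.9). miR-153-3p was also high in the libraries labelled uterus of rat 8 (30.9 CPM, the next at 1.78) and ovary of rat 11 (20.9 CPM, the next at 6.25), which like that adrenal library were high in miR-215. Further single libraries were the ileum of rat 11 for miR-128-3p (125 CPM, the next at 74.1), and for miR-153-3p the duodenum of rat 3 (29.6 CPM, the next at 20.2) and the testis of rat 3 (13.3 CPM, the next at 4.13, in libraries where 1 count is worth several CPM).

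The brainstem of rat 6 and the cerebrum of rat 9, both with runs in lane 8, stood apart in the shares of isomiRs. Shifted starts made up 53.5 and 52.5% of miR-128-3p, 51.5 and 49.4% of miR-137-3p and 49.1 and 51.5% of miR-153-3p there. Reads of the most counted length made up 31.8 and 30.1%, 11.9 and 13.7%, and 45.9 and 42.2%. The cerebellum of rat 11, without runs in that lane, had 40.8% of miR-128-3p reads at 21 bases, the next at 45.3%.

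The highest values of the duodenum libraries used were 115, 5.46 and 29.6 CPM for miR-128-3p, miR-137-3p and miR-153-3p. The libraries left out of rats 2, 4 and 7 exceeded all 3, and that of rat 11 exceeded the first alone. miR-128-3p was at 18204 CPM in rat 2, 23989 in rat 4, 38315 in rat 7 and 622 in rat 11. miR-137-3p was at 382, 459 and 184 CPM and miR-153-3p at 670, 817 and 177 CPM in rats 2, 4 and 7, against 3.49 and 14.5 CPM in rat 11. No difference between regions in the effect of sex passed the test, in 18 tried.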

How the results depend on the processing

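For the 3p members, 39 differences between tissues were recomputed under the alternatives, which gave 903 values, of which 848 kept direction and side of the threshold, 23 lost the threshold, 26 gained it and 6 reversed. The cause was not tested unless stated. The scaling changed several calls. Against upper-quartile scaling it moved the median difference of all names by -0.17 to 0.67 with TMM, -0.15 to 0.54 with RLE and -0.23 to 0.36 with DESeq2, depending on the comparison, and by 0.34, 0.38 and 0.33 in brainstem minus cerebellum. With TMM, RLE and DESeq2, cerebrum minus cerebellum of miR-153-3p was 1.14, 1.23 and 1.23, hippocampus minus cerebellum of miR-128-3p 0.73, 0.97 and 0.97, brainstem minus cerebellum of miR-137-3p 0.081, 0.13 and 0.13, and DRG minus non-neural of miR-128-3p 1.5, 1.25 and 1.25. TMM gave 0.82 for hippocampus minus brainstem of miR-153-3p, and DESeq2 gave 0.81 for its hippocampus minus cerebellum and -0.99 for DRG minus brain of miR-137-3p. With no filter on low counts, where more names were tested, cerebrum minus hippocampus of miR-128-3p stayed at 0.99 and hippocampus minus brainstem of miR-153-3p at 1.04, both no longer past the threshold. The latter was 1.03 with all runs and 1.01 without lane 8.

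With the rat as a block, in a fit without the DRG, 32 of 33 member values kept their call, and brainstem minus cerebellum of miR-153-3p passed at -0.78. The DRG differences were not fitted with this block. The block changed no other call. That difference also passed without the 3 libraries high in miR-215 (-0.79), with the other flow cells alone (-0.86) and, in a choice made after seeing the data, without the cerebrum and brainstem of rat 9 (-1.10). Cerebrum minus cerebellum of miR-153-3p was 0.81 and 0.90 without these libraries. Leaving out predicted and precursor names gave -0.96 for brainstem minus cerebellum of miR-153-3p, -0.64 for that of miR-137-3p and 0.78 for DRG minus non-neural of miR-128-3p.

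With all libraries, which adds 3 hippocampus libraries without neuronal markers and 3 duodenum libraries at brain levels, cerebrum minus hippocampus of miR-137-3p was 0.35, hippocampus minus cerebellum -0.10, 1.15 and -0.21 for miR-128-3p, miR-137-3p and miR-153-3p, hippocampus minus brainstem of miR-153-3p 0.55 and the gut wall difference of miR-128-3p -0.19. The first flow cell alone, with fewer reads, gave 0.94 for cerebrum minus hippocampus of miR-128-3p, 0.83 for hippocampus minus brainstem of miR-153-3p, 0.98 for the pancreas difference of miR-137-3p, and -2.09 and -2.33 for the muscle differences of miR-137-3p and miR-153-3p. In it 7 non-neural tissues, both muscles among them, had 0 counts of miR-137-3p, so its muscle value is set by the fit and is no measured fold, and its pancreas value rests partly on tissues at 0. Leaving out 1 rat gave 0.73 to 0.90 for cerebrum minus cerebellum, 0.98 to 1.35 for hippocampus minus brainstem and -1.07 to -0.67 for brainstem minus cerebellum of miR-153-3p, 0.84 to 1.05 for cerebrum minus hippocampus of miR-128-3p, and 0.28 to 0.89 for the pancreas and -2.57 to -1.99 for the muscle difference of miR-137-3p. The values 0.89 and -1.99 are those without rat 8, where the kidney medulla had 0 counts of miR-137-3p.

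Counts of names past the threshold fell with the first flow cell alone, to 597 from 981 for brain against non-neural tissues, 13 from 59 for cerebrum against hippocampus, 102 from 223 for cerebrum against brainstem, 206 from 331 and 124 from 210 for hippocampus against cerebellum and brainstem, 214 from 450 and 242 from 385 for the DRG against brain and non-neural tissues, 346 from 587 for the adrenal, 361 from 607 for the pancreas and 379 from 680 for muscle. Without predicted and precursor names the first of these was 601 and cerebrum against hippocampus 90, which was 102 with DESeq2 and 27 to 54 without 1 rat. All libraries gave 338 for cerebrum against hippocampus, 115 for cerebrum against brainstem, 417 for hippocampus against brainstem and 299 for DRG against brain, which was 233 to 467 without 1 rat or pool.

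Of 330 values of 15 sex differences 302 kept their call and 28 near 0 changed sign. For miR-128-3p the mean over regions was 0.044 with RLE and DESeq2, 0.073 with all libraries and -0.079 to 0.063 without 1 rat. In the cerebrum it was -0.027 with all libraries, -0.17 without predicted and precursor names, -0.052 and -0.0096 with the first and the other flow cells, -0.0078 without lane 8 and -0.065 to 0.17 without 1 rat. In the cerebellum it was 0.0058 without predicted and precursor names and -0.27 to 0.043 without 1 rat, in the hippocampus 0.37 with all libraries and -0.23 to 0.11 without 1 rat, and in the brainstem -0.087 without these libraries of rat 9 and -0.088 to 0.21 without 1 rat. For miR-137-3p it was -0.028 without predicted and precursor names and -0.064 with the first flow cell in the cerebrum, and -0.0048 to 0.27 without 1 rat in the hippocampus. For miR-153-3p it was 0.13 without rat 9's libraries and -0.28 to 0.14 without 1 rat in the cerebrum, and 0.013 without predicted and precursor names in the cerebellum. The counts of names differing by sex were 7 with DESeq2, 23 with no filter, 9 with all libraries, 1 without rat 9's libraries and 0 to 3 without 1 rat for the mean. In the cerebrum they were 16, 37, 3 without the libraries high in miR-215, 12 without predicted and precursor names, 0 with the first flow cell or without lane 8, and 0 to 6. In the cerebellum they were 33 with no filter, 4 with the first flow cell and 5 to 13. In the hippocampus they were 7 with DESeq2, 25 with no filter, 95 with all libraries, 0 with 1 set of flow cells or without predicted and precursor names, and 0 to 1. In the brainstem they were 5 with DESeq2 and 39 with no filter.

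For the share of miR-128-1-5p, a count minimum 5 times as high left few rats, and cerebrum minus cerebellum (17.6 points), cerebrum minus brainstem (3.06) and hippocampus minus cerebellum (14.0) no longer passed, with hippocampus minus brainstem at -0.74. Without 1 rat, cerebrum minus hippocampus was 2.86 to 4.44 and hippocampus minus brainstem 1.55 to 4.86 points. Shares of isomiRs turned on lane 8. Without it, shifted starts gave -0.015 points for cerebrum minus hippocampus of miR-128-3p, -3.71 for cerebrum minus cerebellum of miR-137-3p and 0.028 for cerebellum minus brainstem of miR-153-3p, and reads of the most counted length of miR-153-3p gave 1.84 for cerebrum minus cerebellum and -2.58 for cerebellum minus brainstem. With no block, hippocampus minus brainstem was -5.33, -2.01 and -4.82 points for shifted starts and 3.07 for the length of miR-153-3p. With all libraries it was -0.021 for shifted starts of miR-128-3p, and with the higher minimum the length difference of miR-137-3p between cerebrum and brainstem was -0.57. Without 1 rat, shifted starts of miR-128-3p gave -0.019 to 8.71 (cerebrum minus hippocampus), -5.93 to 5.80 (cerebrum minus brainstem) and -0.0033 to 0.011 (hippocampus minus brainstem), those of miR-137-3p -3.71 to 0.95 (cerebrum minus cerebellum) and -2.32 to 6.49 (cerebrum minus brainstem), and those of miR-153-3p -5.36 to 5.70 (cerebrum minus brainstem). The length gave -0.65 to 0.92 for hippocampus minus brainstem of miR-128-3p, and for miR-153-3p -2.65 to 1.84, -5.03 to 3.34 and -2.67 to 1.5 for cerebrum minus cerebellum, cerebrum minus brainstem and cerebellum minus brainstem. Tests past the threshold for shifted starts numbered 2 with no block and 2 without lane 8, against 0, and for length 0 with the higher minimum, 4 with all libraries, 8 with no block, 10 without lane 8 and 2 to 8 without 1 rat, against 2. Depth limits levels below 1 CPM, and most of all those of the testis.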
